A study of Mus musculus with 6 samples.

Results

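The genes described here make and fill the MHC class I molecule. They are B2m, H2-K1, H2-D1, Tap1, Tap2, Tapbp, Psmb8, Psmb9, Psmb10 and Nlrc5, chosen by name as 10 genes of the antigen presentation pathway, and all 10 had an entry in a table of 17169 gene entries. Psmb9 had 2 entries, so the genes filled 11 rows. Transcripts were sequenced in 3 mouse cell lines, BBC, ZNF and BCRF8C, each grown from the marrow of diseased Balb/c mice. The disease is SCLL, stem cell leukemia/lymphoma, in which a gene fusion puts the kinase domain of FGFR1, a receptor for fibroblast growth factors, under another protein's control. Each line was kept for 24 h with BGJ398 (infigratinib), which blocks FGFR kinase activity, or with DMSO alone, and 1 library was made per line and agent. The 3 BGJ398 libraries and the 3 DMSO libraries thus come from the same 3 lines, all of them transformed cells, and no library is of normal cells. In the labels BBC2, ZNF112 and BCRF8C are the culture names, with doses of 30, 3 and 1.5 nM; their assignment to these cultures follows the order of the list and is an assumption, and dose and line cannot be told apart. With 1 library per line and agent, p-values below measure the spread between 3 different lines.

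MHC class I molecules show peptides from inside the cell to CD8 T cells and are themselves recognised by natural killer cells. Proteasomes cut cytosolic proteins, and in blood cells and after interferon 3 catalytic subunits are exchanged for PSMB8, PSMB9 and PSMB10, which form the immunoproteasome. The TAP1 and TAP2 transporter carries the peptides into the endoplasmic reticulum, tapasin (Tapbp) holds the empty class I molecule beside it, and the heavy chains (H2-K1, H2-D1) leave the reticulum only with the light chain beta-2 microglobulin (B2m) and a peptide. NLRC5 is a transactivator that acts on the promoters of class I genes.

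Promoters of the class I genes carry a module of short motifs, and the upstream sequences of the chain genes and of the Tap1 and Psmb9 pair are shown because the genes moved to different degrees in these libraries. All are from RefSeq for the mouse build GRCm38.p6, which is of C57BL/6J and not of Balb/c, and 8 of the 10 genes had an entry (Tap2 and Nlrc5 are named only). Capitals mark 4 motifs, searched on both strands. They are the kappa B site, which NF-kB binds and whose letters are the first run of capitals in the H2-K1 and H2-D1 lines, AANNGAAA, the core bound by interferon regulatory factors (IRF), TGACG, the core of cyclic AMP response elements and of the X2 box of class I promoters, and CCAAT, the box bound by NF-Y. The first 3 stretches end at the annotated start of transcription; the Tap1 and Psmb9 stretch fills the whole gap between their starts, which point away from each other, and is written in the direction of Tap1. The stretches are B2m chr2:122147437-122147686 (plus strand), H2-K1 chr17:34000348-34000597 (minus strand), H2-D1 chr17:35262844-35263093 (plus strand) and Tap1 with Psmb9 chr17:34187331-34187555 (plus strand).
B2m: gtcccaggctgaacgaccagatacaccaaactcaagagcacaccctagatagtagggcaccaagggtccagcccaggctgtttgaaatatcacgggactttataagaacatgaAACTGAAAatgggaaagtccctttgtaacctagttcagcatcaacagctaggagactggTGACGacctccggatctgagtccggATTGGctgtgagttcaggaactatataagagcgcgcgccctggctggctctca
H2-K1: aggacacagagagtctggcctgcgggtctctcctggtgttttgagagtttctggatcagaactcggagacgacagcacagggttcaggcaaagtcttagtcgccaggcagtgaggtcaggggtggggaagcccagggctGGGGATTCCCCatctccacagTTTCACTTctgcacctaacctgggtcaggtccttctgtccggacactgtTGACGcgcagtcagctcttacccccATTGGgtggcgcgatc
H2-D1: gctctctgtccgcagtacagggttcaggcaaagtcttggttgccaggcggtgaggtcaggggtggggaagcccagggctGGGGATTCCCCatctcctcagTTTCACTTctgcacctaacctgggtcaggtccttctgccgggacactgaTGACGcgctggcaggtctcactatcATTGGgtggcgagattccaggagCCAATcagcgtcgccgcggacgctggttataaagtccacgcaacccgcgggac
Tap1 and Psmb9: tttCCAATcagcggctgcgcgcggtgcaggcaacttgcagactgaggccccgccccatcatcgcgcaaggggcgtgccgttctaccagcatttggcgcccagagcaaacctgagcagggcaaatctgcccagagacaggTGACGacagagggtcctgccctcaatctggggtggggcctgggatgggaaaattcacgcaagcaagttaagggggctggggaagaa

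In B2m, H2-K1 and H2-D1 the 3 motifs they share stood in the same order, the IRF core, then the CRE core and the CCAAT box, with 20 bases between the CRE core and the nearest CCAAT box in each of the 3 genes. H2-D1 had 2 CCAAT boxes. The kappa B site in these same letters occurred upstream of H2-K1 and H2-D1, ahead of the IRF core in both, and over the 27025 promoters of the table, taking 250 bases upstream and the first start listed for each gene, 6 (0.0222%) held it. The other 4 belonged to H2-Q6, Aipl1, Atg16l2 and Pdzd2. H2-K1 and H2-D1 are copies of one ancestral gene, and laid side by side on that motif their upstream stretches were identical at 166 of 190 bases (87.4%), so these matches are not independent. The gap of 225 bases between Tap1 and Psmb9 held 1 CRE core and 1 CCAAT box. Upstream of Psmb8 and Psmb10 none of the 4 motifs was matched within 250 bases, and upstream of Tapbp only CCAAT was, at 2 places. Over all promoters 17.9% held TGACG, 34.5% CCAAT, 21.6% AANNGAAA, and 1.14% all of these 3. No matches of different motifs overlapped in these genes. A match is a string of letters and not a measured binding site.

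**Figure D1:**
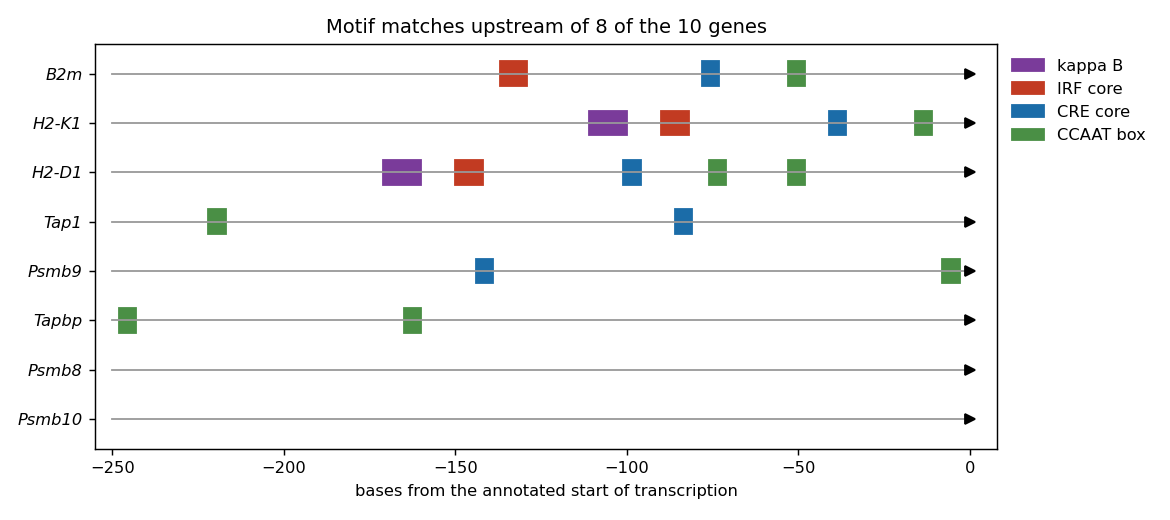
Matches of 4 motifs in the 250 bases upstream of 8 of the genes, by distance in bases from the annotated start of transcription (arrowhead); coloured boxes are matches on either strand. B2m, H2-K1 and H2-D1 share the order IRF core, CRE core and CCAAT box, while Psmb8 and Psmb10 have no match.

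Values are FPKM, fragments scaled to transcript length and to the mapped fragments of the library, as the authors deposited them, and log2 ratios are of FPKM + 1, BGJ398 over DMSO. The whole table was compressed with BGJ398. Over the 14232 entries whose mean reached 1 FPKM, the median level was 4.53, 6.47 and 4.92 FPKM with BGJ398 in BBC, ZNF and BCRF8C, against 9.95, 8.36 and 9.03 FPKM in DMSO, and the median log2 ratio over the 3 lines was -0.69. Highly expressed entries were lowered most, so each ratio is given as deposited and, where it matters, with the trend of the ratio on expression removed within the line, which brought the median to 0.026. Library and agent cannot be told apart in this compression. The lines carried blood cell markers, with 5 of 5 at or above 1 FPKM in each BBC and ZNF library and 4 of 5 in each BCRF8C library, where Cd48 was listed at 0. The B lineage markers summed to 749, 492 and 10.7 FPKM with BGJ398 in BBC, ZNF and BCRF8C, against 1448, 275 and 0.6545 FPKM in DMSO, most of the ZNF sums being Rag1 with 482 FPKM with BGJ398 and 272 FPKM in DMSO. The T lineage markers summed to 110, 719 and 14.3 FPKM with BGJ398, against 176, 1101 and 17.4 FPKM in DMSO. In BBC the sum was mostly Lat (76.2 FPKM with BGJ398, 145 FPKM in DMSO) and Lck (27.5 and 28.6 FPKM). Cd3d, Cd3g, Cd247 and Cd8a were higher with BGJ398 in BBC, and Cd8a was higher in all 3 lines. Cd247 and Lat were the T lineage markers lower with BGJ398 in BCRF8C. The 4 myeloid markers with an entry (of 9) summed to 11.3, 17.7 and 35.1 FPKM with BGJ398, against 7.97, 0.594 and 47.3 FPKM in DMSO. The B lineage and myeloid sums thus differed in direction between lines. The 3 dendritic cell markers with an entry (of 4) summed to 4.42, 3.55 and 9.45 FPKM with BGJ398, against 1.89, 1.72 and 2.52 FPKM in DMSO. The 2 stromal markers with an entry (of 5) summed to 6.56, 3.20 and 14.9 FPKM with BGJ398, against 2.82, 0.372 and 1.17 FPKM in DMSO. The dendritic and stromal sums were higher with BGJ398 in all 3 lines and the T lineage sums lower. The dendritic and stromal markers were all low. In DMSO none exceeded 2.03 FPKM (Zbtb46, BCRF8C), and Siglech and Col1a1 stayed below 1 FPKM in every line. With BGJ398 none exceeded 7.66 FPKM (Col1a1, BCRF8C). Values under 1 FPKM, apart from those at or next to 0, were rare with BGJ398. Pairs of BGJ398 libraries shared 99, 127 and 49 entries with such values, and pairs of DMSO libraries 1051, 1789 and 1317. Markers such as Cd3d and Cd8a in BBC and Cd79a in BCRF8C were below 1 FPKM in DMSO and just above it with BGJ398. Whether the rise in such low values, in any of these lists, goes beyond the compression of the table was not tested. The part of these lists in the results below was not tested.

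With BGJ398 the class I genes stood at different distances from DMSO. As deposited, Psmb8, Psmb10, Tap1 and the Psmb9 entry with the higher mean were furthest below, B2m had the ratio nearest to 0, and the other genes stood between. With the trend removed, B2m was instead the furthest above 0, with a mean log2 ratio of 1.28. In the limma test across the lines, 7 of the 10 genes fell with BGJ398 at an adjusted p under 0.05 (Benjamini-Hochberg over all 14232 entries), namely Psmb8, Psmb9, Psmb10, Tap1, Tap2, Tapbp and Nlrc5, and 0 rose. Over all entries tested 30.2% fell, 6.61% rose and 36.8% were called in all, and of the 9109 entries whose mean reached 5 FPKM, which include all 10 genes, 4910 fell. All 10 genes but B2m, that is 9, were lower with BGJ398 in each line, as were 55.7% of entries. The median of the 10 mean log2 ratios was -1.54 as deposited, against -0.69 over all entries, and -0.11 with the trend removed, against 0.026. The count of 7 genes was 0 in limma without BBC (6 at an unadjusted p under 0.05), 1, Psmb9, without BCRF8C, and 0 with the trend removed (2 at an unadjusted p under 0.05). It was also 0 without the line as a block (5), after median-of-ratios scaling (4), where 3 of all entries rose and 1 fell, and after quantile normalization (4), where 2 rose and 1 fell, while it was 8 or 9 under 4 other alternatives.

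**Figure D2:**
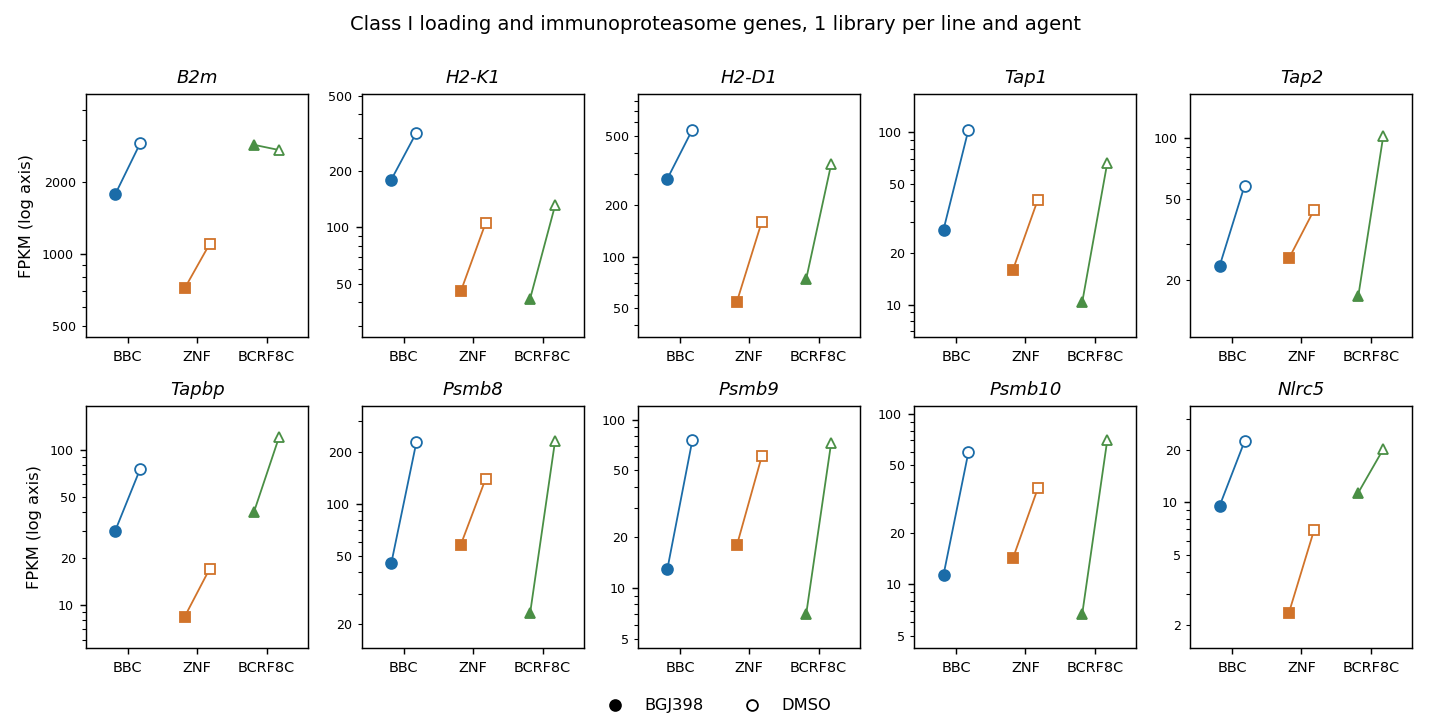
FPKM of the 10 genes on log axes, each panel with its own range, in the BGJ398 library (filled, left) and the DMSO library (open, right) of BBC, ZNF and BCRF8C, with a line joining the pair; Psmb9 is its entry with the higher mean. The BGJ398 library is the lower one in every pair except B2m in BCRF8C, at 2857 FPKM with BGJ398 and 2718 FPKM in DMSO.

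Psmb8 and Psmb10 had the lowest ratios together with 1 of the Psmb9 entries. Psmb8 (ENSMUSG00000024338, chromosome 17, 34334666 to 34353266 in NCBIM37, a locus that the table shares among 4 entries with Tap2), the chymotrypsin-like subunit of the immunoproteasome, had 45.4, 57.7 and 23.2 FPKM with BGJ398 in BBC, ZNF and BCRF8C, against 226, 139 and 231 FPKM in DMSO. Every BGJ398 library was below every DMSO library. The share of all entries without such overlap was not counted, for this gene or for those below. Of all entries tested, 55.7% were lower with BGJ398 in each of the 3 lines. The mean log2 ratio of Psmb8 was -2.27 ± 1.0 (SD, n = 3 lines), with an adjusted p = 0.0348 in limma. Psmb10 (ENSMUSG00000031897, chromosome 8, 108458233 to 108489974), the trypsin-like subunit, had 11.4, 14.2 and 6.73 FPKM with BGJ398, against 60.0, 36.7 and 70.1 FPKM in DMSO, again without overlap. Its mean log2 ratio was -2.27 ± 0.95, and it too passed (limma adjusted p = 0.0348). In DMSO the 3 lines were within 1.65-fold of each other for Psmb8 and within 1.91-fold for Psmb10, and with BGJ398 the order turned, ZNF being highest and BCRF8C lowest for both genes.

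Psmb9 (chromosome 17, 34318932 to 34334170, a locus shared with Tap1), whose product takes the place of PSMB6, was split over 2 entries. The entry with the higher mean, which lists ENSMUSG00000024337 and ENSMUSG00000092299, had 13.0, 17.9 and 6.99 FPKM with BGJ398 in BBC, ZNF and BCRF8C, against 75.8, 60.5 and 72.7 FPKM in DMSO. The groups did not overlap, and this entry fell (mean log2 ratio -2.46 ± 0.75, limma adjusted p = 0.0348). The second entry, ENSMUSG00000092299 alone, had 1.996, 3.52 and 40.2 FPKM with BGJ398, against 10.4, 3.20 and 8.16 FPKM in DMSO. It was thus lower in BBC, nearly level in ZNF and higher in BCRF8C, with a mean log2 ratio of 0.11 ± 2.05 and a limma adjusted p = 0.903. Summed over both entries Psmb9 had 15.0, 21.4 and 47.2 FPKM with BGJ398, against 86.2, 63.7 and 80.9 FPKM in DMSO, and its mean log2 ratio was -1.58 (limma adjusted p = 0.0397), which is nearer to 0 than that of Tap1. How reads were shared between the 2 entries is not given in the sources used here, so the BCRF8C level of Psmb9 is uncertain.

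The immunoproteasome subunits take the place of the constitutive catalytic subunits PSMB5, PSMB6 and PSMB7, whose genes fell as well. Their mean log2 ratios were -2.64 for Psmb5, -2.30 for Psmb6 and -2.07 for Psmb7 (limma adjusted p = 0.0348, 0.0350 and 0.0348). A ratio of levels within a library is not altered by a single scaling factor per library, but a correction that depends on the level, such as quantile normalization or trend removal, can alter it. The summed FPKM of Psmb8, Psmb9 and Psmb10 over that of Psmb5, Psmb6 and Psmb7 was 0.760, 0.334 and 0.524 with BGJ398 in BBC, ZNF and BCRF8C, against 0.641, 0.389 and 0.575 in DMSO. The ratio was higher in BBC and lower in the other two lines, a mean log2 difference of -0.037 ± 0.25 (SD, n = 3 lines), which is smaller than the spread between lines. The direction in BCRF8C rests on which Psmb9 entry is counted. With both Psmb9 entries summed, a choice made after the values were seen, the ratio was 0.781, 0.347 and 1.10 with BGJ398, against 0.660, 0.395 and 0.588 in DMSO, higher in BBC and BCRF8C and lower in ZNF (mean log2 difference 0.32 ± 0.55). With 3 pairs the smallest p of an exact sign-flip test is 0.25, so none was made.

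By pairs of exchanged subunits, Psmb8 over Psmb5 was 1.93, 0.760 and 2.32 with BGJ398 in BBC, ZNF and BCRF8C, against 1.16, 0.747 and 1.68 in DMSO, higher in BBC and BCRF8C and nearly level in ZNF. Psmb9 over Psmb6 was 0.297, 0.148 and 0.251 with BGJ398, against 0.333, 0.227 and 0.240 in DMSO. Psmb10 over Psmb7 was 0.463, 0.197 and 0.207 with BGJ398, against 0.421, 0.237 and 0.336 in DMSO. The Psmb9 and Psmb10 ratios had no common direction in the 3 lines. With both Psmb9 entries summed, Psmb9 over Psmb6 in BCRF8C was 1.69 with BGJ398, against 0.266 in DMSO. In DMSO, ZNF had the lowest of all 4 ratios and BBC the highest except for Psmb8 over Psmb5, which was highest in BCRF8C.

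**Figure D3:**
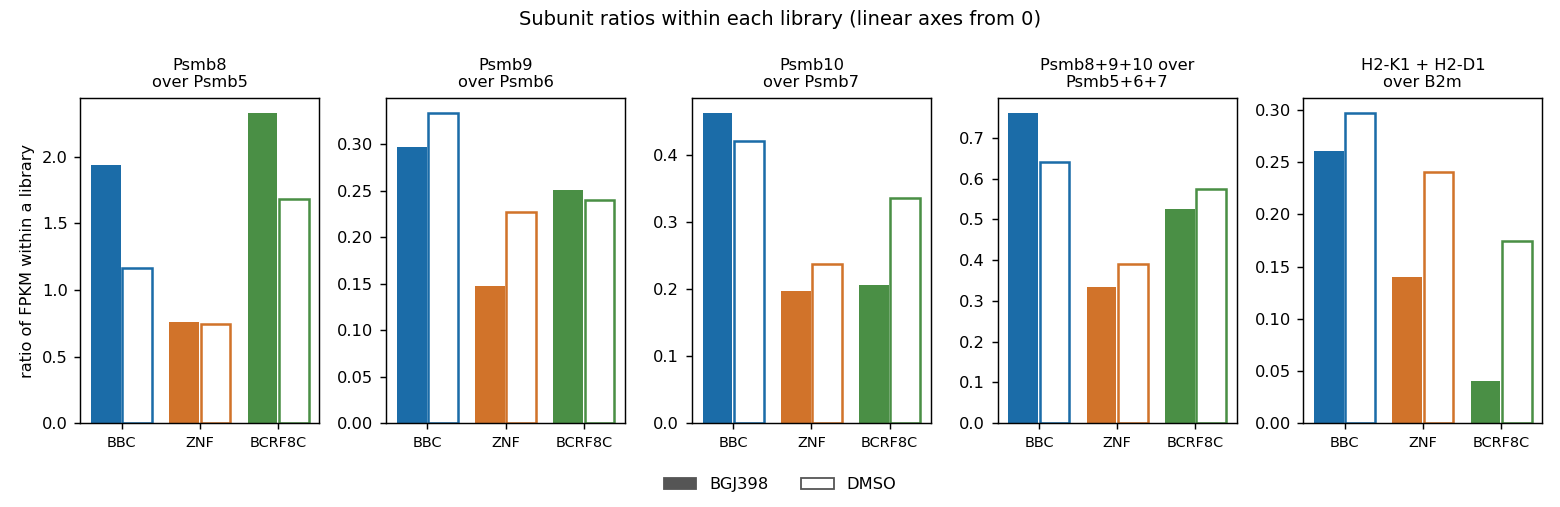
Ratios of FPKM within a library, on linear axes from 0, in the BGJ398 library (filled bar, left) and the DMSO library (open bar, right) of each line; there is 1 library per bar and no error, and Psmb9 is its entry with the higher mean. The summed immunoproteasome over constitutive ratio is 0.524 with BGJ398 and 0.575 in DMSO for BCRF8C, while the ratio of H2-K1 and H2-D1 to B2m is 0.0406 with BGJ398 and 0.174 in DMSO there.

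Both peptide transporter genes fell. Tap1 (ENSMUSG00000037321, chromosome 17, 34318932 to 34334170) had 27.1, 15.9 and 10.4 FPKM with BGJ398 in BBC, ZNF and BCRF8C, against 103, 40.5 and 65.9 FPKM in DMSO. Each BGJ398 library lay below all DMSO libraries, and the mean log2 ratio was -1.92 ± 0.63 (SD, n = 3 lines, limma adjusted p = 0.0348). Tap2 (ENSMUSG00000024339, chromosome 17, 34334666 to 34353266) had 23.4, 25.5 and 16.7 FPKM with BGJ398, against 58.1, 44.0 and 102 FPKM in DMSO, also without overlap. Its mean log2 ratio was -1.53 ± 0.92 (limma adjusted p = 0.0431), and its ratio in BCRF8C was -2.54, against -0.77 in ZNF. The level of Tap1 over that of Tap2 was 1.16, 0.622 and 0.620 with BGJ398 in BBC, ZNF and BCRF8C, against 1.77, 0.920 and 0.644 in DMSO, lower with BGJ398 in all 3 lines. Psmb9, whose start lies 225 bases from that of Tap1 across the shared promoter, stood at 0.479, 1.13 and 0.675 of the Tap1 level with BGJ398, against 0.735, 1.50 and 1.10 in DMSO. On the log2 scale that is a mean difference of -0.58 ± 0.15 (n = 3 lines) for the entry of Psmb9 with the higher mean. With both entries summed the Psmb9 to Tap1 ratio in BCRF8C was 4.56 with BGJ398, against 1.23 in DMSO, so the direction there turned.

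Tapbp (ENSMUSG00000024308, chromosome 17, 34052844 to 34066235), which encodes tapasin, had 30.2, 8.42 and 39.9 FPKM with BGJ398 in BBC, ZNF and BCRF8C, against 75.5, 17.1 and 120 FPKM in DMSO. The ranges overlapped because ZNF was low with both agents. Tapbp fell (mean log2 ratio -1.27 ± 0.31, limma adjusted p = 0.0384), but with the expression trend removed its mean ratio was 0.10, and the direction turned. Nlrc5 (ENSMUSG00000074151, chromosome 8, 96996663 to 97051172), the transactivator, had 9.53, 2.35 and 11.4 FPKM with BGJ398, against 22.3, 6.90 and 20.1 FPKM in DMSO. It too overlapped between the groups through the low ZNF levels, and it fell (mean log2 ratio -1.05 ± 0.25, limma adjusted p = 0.0388), with a trend-removed mean of -0.059. Without BBC, ZNF or BCRF8C in turn, Nlrc5 did not pass (limma adjusted p = 0.244, 0.0569 and 0.126).

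The heavy and light chain genes did not pass the test, but the heavy chain genes lay near its threshold. H2-K1 (ENSMUSG00000061232, chromosome 17, 34132962 to 34137278) had 180, 45.7 and 41.8 FPKM with BGJ398 in BBC, ZNF and BCRF8C, against 318, 106 and 131 FPKM in DMSO, lower in each line but with overlapping ranges. Its mean log2 ratio was -1.21 ± 0.40 (n = 3 lines, limma adjusted p = 0.0626), but 0.067 after quantile normalization and 0.31 with the trend removed. H2-D1 (ENSMUSG00000073411, chromosome 17, 35399675 to 35404444) had 283, 54.6 and 74.1 FPKM with BGJ398, against 543, 159 and 342 FPKM in DMSO, also with overlap. Its mean log2 ratio was -1.55 ± 0.63 (limma adjusted p = 0.0508), and its trend-removed mean was 0.051. H2-D1 passed in limma under 4 alternatives, with a pseudocount of 0.1 (adjusted p = 0.0459), without the filter on low values (0.0489), among entries above 0 in all 6 libraries (0.0293) and without the intensity trend (0.0414), and H2-K1 under the last 2 of these (0.0479 and 0.0447). B2m (ENSMUSG00000060802, chromosome 2, 121945844 to 122011925) had 1776, 717 and 2857 FPKM with BGJ398, against 2905, 1100 and 2718 FPKM in DMSO. Its mean log2 ratio was -0.42 ± 0.43 (limma adjusted p = 0.679) as deposited, against 0.64 after quantile normalization and 0.33 after median-of-ratios scaling and 1.28 with the trend removed, so its direction depends on the scaling.

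B2m ranked among the most abundant transcripts of every library, at percentiles from 99.2 to 99.9 of its entries. Within a library, the summed level of H2-K1 and H2-D1 over that of B2m was 0.260, 0.140 and 0.0406 with BGJ398 in BBC, ZNF and BCRF8C, against 0.297, 0.241 and 0.174 in DMSO. This ratio, chosen after the values were seen, was lower with BGJ398 in all 3 lines, by 0.19, 0.78 and 2.10 on the log2 scale, a mean difference of -1.02 ± 0.98. Balb/c mice carry other alleles of H2-K1 and H2-D1 than the C57BL/6J genome behind NCBIM37, and class I genes share long stretches of sequence. The effect of either on these levels was not tested.

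Within each line the distances were as follows, with no test since there is 1 library per agent. In BBC 7 of the 10 genes were at least 2-fold lower with BGJ398, where 45% of the entries whose mean in that line reached 1 FPKM were, and none was 2-fold higher, where 8.79% were. In ZNF 7 genes were at least 2-fold lower against 16.3% of all entries, with 13.2% of entries higher. In BCRF8C 8 genes were, against 43.5% of entries, with 21.7% higher. With the expression trend removed, 0 genes were 2-fold apart in BBC or ZNF, where the ratios ran from -0.87 for Psmb9 to 0.98 for H2-K1 and from -0.97 for Nlrc5 to 0.19 for B2m. In BCRF8C the trend-removed ratios of Psmb10, Psmb9, Psmb8 and Tap1 were -1.71, -1.70, -1.39 and -1.02, while B2m stood at 2.74. Psmb8, Psmb10, Tap1 and the Psmb9 entry with the higher mean had trend-removed ratios below 0 in each of the 3 lines, as had 25.4% of all entries. The second Psmb9 entry was at -1.04, 0.27 and 3.60 in BBC, ZNF and BCRF8C, and the sum of both entries at -0.83, -0.73 and 1.03, above 0 in BCRF8C.

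**Figure D4:**
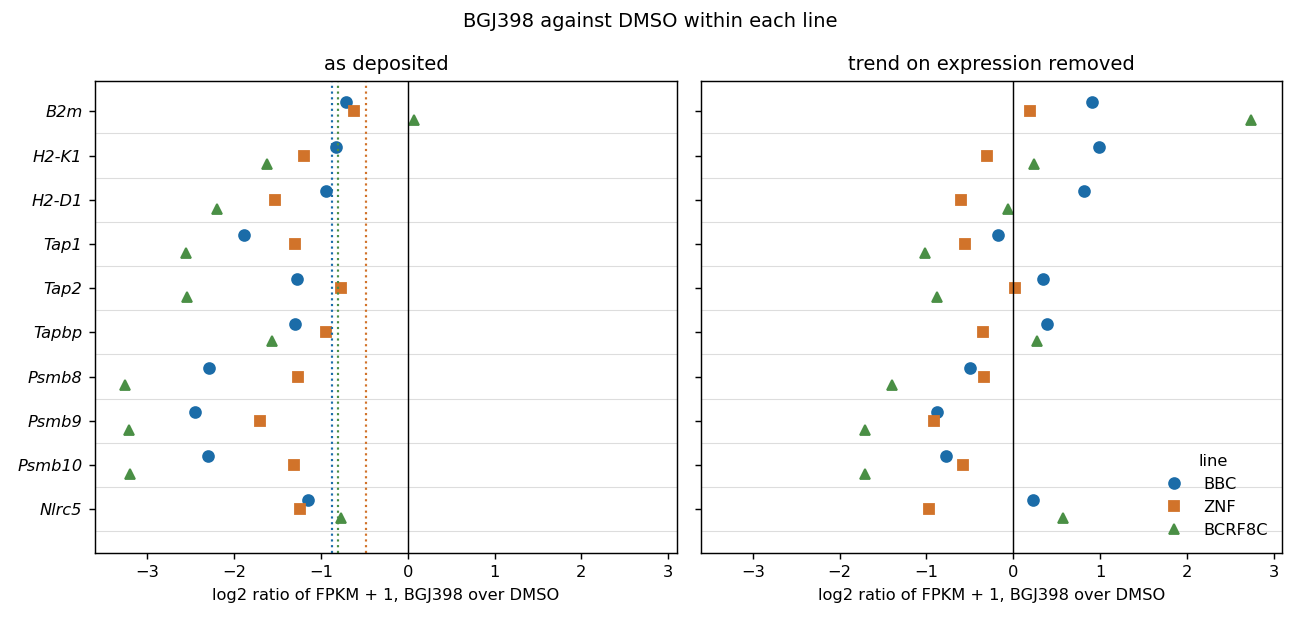
Log2 ratios of FPKM + 1, BGJ398 over DMSO, of the 10 genes in BBC (circles), ZNF (squares) and BCRF8C (triangles), as deposited on the left and with the trend of the ratio on expression removed on the right; dotted lines on the left are the medians over all entries of each line (-0.87, -0.48 and -0.80). As deposited all points but B2m in BCRF8C lie below 0, and with the trend removed Psmb8, Psmb10, Tap1 and the Psmb9 entry plotted, the one with the higher mean, lie below 0 in every line; the sum of both Psmb9 entries, not plotted, was at 1.03 in BCRF8C.

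Among the lines, Tapbp had the widest range in DMSO of the 10 genes. In DMSO Tapbp had 120 FPKM in BCRF8C, 75.5 FPKM in BBC and 17.1 FPKM in ZNF, a 7.04-fold range, and it was the 1 gene of the 10 with a difference among lines in the limma F test over both agents (adjusted p = 0.0423), where 6.47% of all entries were called. Of its pairs of lines, BCRF8C exceeded ZNF by 2.43 on the log2 scale (limma adjusted p = 0.0308; 5.49% of entries were called in that pair), while ZNF against BBC (-1.90, adjusted p = 0.0794, with 2.91% of entries called) and BCRF8C against BBC (0.53, adjusted p = 0.570, with 3.32%) did not pass in limma. The test assumes that line and agent add, since in DMSO alone there is 1 library per line. The call of Tapbp ended without BBC, without ZNF or without the intensity trend. Nlrc5 had the next lowest p, with 22.3 FPKM in BBC, 20.1 FPKM in BCRF8C and 6.90 FPKM in ZNF in DMSO (limma F test, adjusted p = 0.0624).

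For the chain genes the order in DMSO was BBC, BCRF8C and ZNF, with a 3.01-fold range for H2-K1, 3.42-fold for H2-D1 and 2.64-fold for B2m. None passed among lines in the limma F test (adjusted p = 0.136, 0.172 and 0.463). Psmb9 had the narrowest range among lines in DMSO, 1.25-fold, followed by Psmb8 with 1.65-fold and Psmb10 with 1.91-fold, and their F tests in limma gave adjusted p = 0.719, 0.853 and 0.937. Tap1 and Tap2 spanned 2.54-fold and 2.32-fold (limma adjusted p = 0.315 and 0.908). ZNF was the lowest of the 3 lines for all 10 genes in DMSO, and with BGJ398 for B2m, H2-D1, Tapbp and Nlrc5, while BCRF8C was the lowest for the other 6, counting for Psmb9 the entry with the higher mean. With both Psmb9 entries summed BCRF8C was the highest line with BGJ398, not the lowest. The share of all entries that were lowest in ZNF was not counted. The median over the entries tested was also lowest in ZNF in DMSO, at 8.36 FPKM, against 9.95 FPKM in BBC and 9.03 FPKM in BCRF8C. With BGJ398 that median was highest in ZNF.

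The surrounding pathway was described through lists of related genes. None of the lists held a gene that rose, where 6.61% of all entries rose, and 315 of the 9109 whose mean reached 5 FPKM. Over all entries 30.2% fell. Of 13 genes of peptide loading and trimming, 8 fell (median -1.25, against -0.69 over all entries). They were Thop1 (-2.28), a cytosolic peptidase, Lap3 (-1.90), a leucine aminopeptidase, the chaperone gene Hspa5 (-1.90), Canx (-1.52), which encodes calnexin, Sec61a1 (-1.40), a subunit of the translocation channel, Erap1 (-1.25), the peptidase that trims peptides in the reticulum, Pdia3 (-1.19), a disulfide isomerase of the loading complex, and the peptidase gene Blmh (-1.13), with limma adjusted p between 0.0348 and 0.0471. With the trend removed, Pdia3 (0.21), Blmh (0.18), Canx (0.12) and Sec61a1 (0.093) had means above 0, Pdia3 and Blmh after quantile normalization as well. Calr, which encodes calreticulin, was at -1.35 (limma adjusted p = 0.0607). Of 8 genes of proteasome activators and assembly 6 fell (median -1.86), the assembly genes Psmg3 (-2.32), Psmg2 (-2.21), Psmg1 (-1.89) and Pomp (-1.83) and the activator genes Psme2 (-2.20) and Psme3 (-1.64). Psme1, the partner of Psme2 in the interferon-inducible activator, had 56.2, 163 and 146 FPKM with BGJ398 in BBC, ZNF and BCRF8C, against 250, 282 and 206 FPKM in DMSO (-1.14 ± 0.88, limma adjusted p = 0.119).

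Other class I genes stood nearer to DMSO. Of 23 such genes 17 had an entry and 16 were tested, of which 4 fell (median -0.86): H2-K2 (-1.38), H2-M3 (-1.35), which presents formylated peptides, H2-Q2 (-1.31) and H2-Q8 (-0.90, but 0.017 with the trend removed). Their adjusted p in limma was between 0.0348 and 0.0479. The groups of H2-T22 overlapped widely, with 24.0, 126 and 1.83 FPKM with BGJ398 in BBC, ZNF and BCRF8C, against 47.9, 95.2 and 4.795 FPKM in DMSO. Mr1, which presents vitamin metabolites, had the highest ratio of the list (0.16, limma adjusted p = 0.682). Reads of these near-identical genes may be shared, so their single values are uncertain.

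Among the factors that act on class I promoters, 3 of 11 tested genes fell (median -0.93), Nfkb1 (-1.57), the NF-Y subunit gene Nfyb (-1.07) and Creb1 (-1.05), with limma adjusted p up to 0.0491. The trend-removed means of Nfyb (0.25) and Creb1 (0.15) were above 0, as they were after quantile normalization. Rfx5, a subunit of the RFX complex with which NLRC5 acts, had 9.83, 6.41 and 4.93 FPKM with BGJ398, against 10.3, 2.72 and 10.7 FPKM in DMSO, higher in ZNF and lower in BCRF8C (-0.018 ± 0.99, limma adjusted p = 0.973). Of the 14 genes of the interferon signal, 7 fell (median -1.09), with Socs1 (-2.39), an inhibitor of the pathway, and Ifngr1 (-1.85), a chain of the interferon gamma receptor, lowest. Irf1 (-1.47), Irf9 (-1.32), Tyk2 (-1.18) and Ifnar2 (-0.99) were among the others, with limma adjusted p up to 0.0482. Irf1, a factor that binds the IRF core, had 19.2, 14.5 and 18.6 FPKM with BGJ398, against 71.7, 35.4 and 48.7 FPKM in DMSO, without overlap. Irf8 was spread by line, with 62.7, 1.11 and 9.37 FPKM with BGJ398, against 203, 0.734 and 77.4 FPKM in DMSO (-1.44 ± 1.61, limma adjusted p = 0.0947). With the trend removed the medians of these lists were 0.12 for loading and trimming, -0.49 for activators and assembly, 0.11 for other class I genes, 0.08 for promoter factors, -0.16 for the interferon signal and -0.74 for the 3 constitutive subunits.

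**Figure D5:**
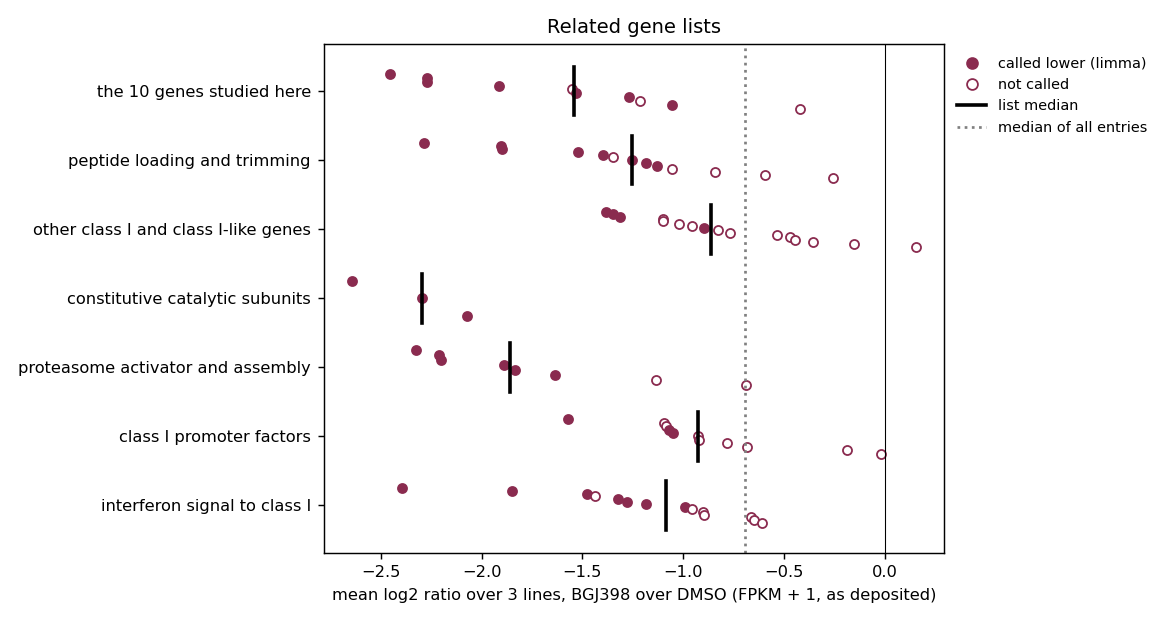
Mean log2 ratios over the 3 lines, BGJ398 over DMSO on FPKM + 1 as deposited, of the 10 genes and 6 related lists; filled points fell in limma, open points were not called, black bars are list medians and the dotted line is the median of all entries (-0.69). The medians of the constitutive subunits (-2.30) and of proteasome activators and assembly (-1.86) lie below that of the 10 genes (-1.54), and that of other class I genes (-0.86) lies nearest to all entries.

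Genes whose levels followed the mean profile of the 10 genes over the 6 libraries were Chac2, Abca7, Fuca1, Trmt2b and Shc1, with Pearson r from 0.990 to 0.994 among 12560 entries compared. In all, 502 entries exceeded 0.9. The 6 libraries share 3 lines and the compression with BGJ398, so this likeness is a description of these libraries.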

How the data were processed

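The authors deposited FPKM values in 1 table with 1 column per library, each named like 1 sample title; the number of unmapped value columns was 0. The tools listed in the submitters' processing notes are bcl2fastq and TopHat2, release 2.0.12, and the build is NCBIM37. Which program estimated FPKM, and from which annotation, is not given in the sources used here. The depth of the libraries cannot be read from the values: FPKM ratios of low entries between libraries, searched for repeated values as whole reads would give, did not repeat in more than 8.16% of entries (at 3 significant digits), so no counting error is given. Gene starts are printed with 1 added, since 6377 entries span exactly the GENCODE gene length as end minus start and 166 span it less 1. Values were analysed as log2(FPKM + 1) in limma (version 3.58.1, R 4.3.3; lmFit, eBayes with intensity trend, two-sided, Benjamini-Hochberg, threshold 0.05), for entries whose mean reached 1 FPKM, with the cell line as a block. The line pairs the libraries because both come from the same cells. Deviations from the group means correlated at 0.454, 0.541 and 0.549 within BBC, ZNF and BCRF8C, against at most -0.179 with another line. The deviations of an entry sum to 0 over the lines of an agent, so this contrast is in part fixed by the calculation. Lines were tested with the F test of the same model. The expression trend was removed with lowess (span 0.3) within each line. Of entries sharing a symbol, the one with the highest mean stands for it, and the second Psmb9 entry is given too. Genes named were the 10 genes, of each list those called (or, with fewer than 2 called, the 2 with the largest absolute mean log2 ratio), a few others chosen after their values were seen (Calr, Psme1, H2-T22, Mr1, Rfx5, Irf8), and the 5 most alike entries. The genes and lists were chosen with earlier results of these data known. Alternatives were other scalings, pseudocounts and filters, no block and leaving out each line. The fit was tested on simulated data with independent noise and no compression, so that check does not cover the compression seen here. The values of 1 called list gene are not reported here.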

Additional observations from a re-analysis of the deposited data

Results flagged for a closer look

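The results of 2 entries moved in opposite directions between lines, with 1 library per line and agent, so the difference was not tested. The log2 ratio of B2m was -0.71 in BBC and -0.62 in ZNF, but 0.072 in BCRF8C. The log2 ratio of the second Psmb9 entry was -1.93 in BBC, 0.11 in ZNF and 2.17 in BCRF8C, while the first entry was below 0 in all 3 lines. No group here has the 4 or more libraries that a search for single outlying libraries needs.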

How the results depend on the processing

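As deposited, 5236 entries and 7 of the 10 genes were called between BGJ398 and DMSO in limma. Median-of-ratios scaling left 4 entries, quantile normalization 3, removal of the expression trend 0 (with 3084 at an unadjusted p under 0.05), 7 were called without the line as a block, and 412 (353 higher, 59 lower) with the trend removed among entries above 0 in all 6 libraries, a setting added after seeing the data. The count among the 10 genes was 0 under each of these 5 settings in limma, with 4, 4, 2, 5 and 3 genes at an unadjusted p under 0.05. The count of genes was 9, with 7287 entries, among entries above 0 in all 6 libraries, and 8 each with a pseudocount of 0.1, without a filter and without the intensity trend. With the trend removed and both Psmb9 entries summed, also added after seeing the data, it was 0 entries (3083 at an unadjusted p under 0.05) and 0 genes (1). Leaving out a line gave between 0 and 4974 entries (1648 without BCRF8C, 0 without BBC with 2991 at an unadjusted p under 0.05) and between 0 and 6 genes. The cause was not tested. Among lines, 921 entries and 1 gene were called. This became 1868 entries and 2 genes among entries above 0 in all 6 libraries, 2 genes at a mean of at least 5 FPKM, and 0 genes without the intensity trend (5 at an unadjusted p under 0.05). Without a line it was between 0 and 1740 entries (124 without ZNF, 0 without BBC with 2015 at an unadjusted p under 0.05) and between 0 and 2 genes.

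The mean log2 ratio was reversed for B2m after median-of-ratios scaling (0.33), quantile normalization (0.64) and trend removal (1.28, and 1.32 among entries above 0 in all 6 libraries). It was reversed for H2-K1 after quantile normalization (0.067) and trend removal (0.31 and 0.35), for H2-D1 (0.051 and 0.10, or 0.0505 with both Psmb9 entries summed) and Tapbp (0.10 and 0.12) after trend removal, and for the second Psmb9 entry without BCRF8C (-0.91). Psmb8, Psmb9, Psmb10, Tap1, Tap2 and Nlrc5 had mean ratios below 0 under every alternative that can alter this mean. Those were the other scalings, trend removal, the other pseudocount, leaving out a line and, for Psmb9, summing both entries. The filters, the block and the intensity trend alter only p, so they could not turn the direction. Within lines, the counts of genes at least 2-fold apart were 3 in BBC and 4 in ZNF after median-of-ratios scaling, 1 and 1 after quantile normalization, and 0, 0 and 5 in BBC, ZNF and BCRF8C with the trend removed. The mean log2 difference of the immunoproteasome to constitutive ratio (-0.037) became 0.32 with both Psmb9 entries summed, a setting added after seeing the data. It was -0.036 as a mean over the 3 exchanged pairs and between -0.18 and 0.056 without a line. Depth is unknown and limits low values most.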
